A study of Mus musculus with 8 samples.

Results

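Gene-desert peaks were the RelA binding regions that lay farthest from protein-coding genes in mouse embryonic fibroblasts. They were chosen by position alone: a peak on chromosomes 1 to 19 whose centre was outside every protein-coding gene, more than 1 kb from each end of a gene of any kind, and more than 100 kb from the nearest end of a protein-coding gene. Of 9829 RelA peaks in all, 9688 lay on chromosomes 1 to 19, and 1450 of these met the rule (15.0%, Wilson 95% interval 14.3 to 15.7%). RelA (p65), a subunit of NF-kB, was located by ChIP-seq, in which DNA bound by an antibody's target is sequenced, in primary wild-type fibroblasts of C57BL/6 embryos, which were starved of serum overnight. Libraries were made without TNF (0 h) and after 0.5 and 3 h of TNF at 10 ng/ml, 2 for each time, beside 2 of input DNA, which makes 8 in all. A single list of peaks for the series gives a start and an end for each peak on the mm10 genome, with no height and no library attached. No time could therefore be compared with another, no spread between replicates could be given, depth was unknown, and the labelled cell type could not be checked against its markers. All values below describe this list, and their intervals cover counting error only.

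NF-kB dimers are held in the cytoplasm of resting cells, enter the nucleus after TNF, and bind a short DNA element called the kappaB site. Much of the binding of such factors is known to fall on enhancers, which can act on a gene across long stretches of sequence. Stretches without protein-coding genes, called gene deserts, often border genes for developmental regulators and are known to hold such enhancers. The nearest gene is a label of position here, and need not be the gene that a region acts on.

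Sequences are shown first for the gene-desert peaks whose own letters, or whose closest small RNA genes, are in the RefSeq tables (build GRCm38.p6, the same assembly as mm10). In 2 peaks, an annotated promoter window of 300 bases lay wholly inside the peak, both times at an alternative start inside a long noncoding RNA (lncRNA) gene. The window of Gm36372 spans chr12:16210309-16210608 on the minus strand, within a 736 bp peak that was 325 kb from Lpin1. The window of Gm35551 spans chr17:84044537-84044836 on the minus strand, within a 734 bp peak 139 kb from Zfp36l2, which encodes an mRNA-destabilising protein. Capitals mark the AP-1 element TGANTCA in Gm36372 and the kappaB consensus in Gm35551, both searched on both strands.
Gm36372: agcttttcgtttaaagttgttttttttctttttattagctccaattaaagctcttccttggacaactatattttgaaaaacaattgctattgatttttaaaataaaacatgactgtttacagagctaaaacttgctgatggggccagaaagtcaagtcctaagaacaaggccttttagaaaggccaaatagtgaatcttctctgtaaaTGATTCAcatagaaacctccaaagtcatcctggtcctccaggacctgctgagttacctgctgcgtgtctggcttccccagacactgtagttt
Gm35551: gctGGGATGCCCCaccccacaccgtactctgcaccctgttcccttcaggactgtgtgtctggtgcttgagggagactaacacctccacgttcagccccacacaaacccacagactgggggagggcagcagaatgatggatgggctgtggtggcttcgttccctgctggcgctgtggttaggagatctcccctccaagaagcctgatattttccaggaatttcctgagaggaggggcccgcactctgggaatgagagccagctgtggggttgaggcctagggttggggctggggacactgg
The Gm35551 window held 1 match to the kappaB consensus searched, a pattern of 10 bases, at bases 4 to 13, read as GGGATGCCCC. Near matches and shorter forms of the site were not counted. The Gm36372 window held 1 AP-1 match at bases 209 to 215. Of 31365 promoter windows of the same length on these chromosomes, 8.55% held the kappaB consensus and 7.85% held TGANTCA. Of the 808 windows that lay wholly inside any RelA peak, 36.1% and 8.29% did. A match describes letters and does not show that the factor binds there.

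A few microRNA genes lay near gene-desert peaks, and their mature products are shown because they form families with a common seed, the bases that pair with target messages. Within 50 kb of 15 gene-desert peaks there were 15 microRNA genes. Of 100 microRNA genes that themselves lay in a desert, 14 had a gene-desert peak within 50 kb (Wilson 95% interval 8.53 to 22.1%). Of all desert positions, 14.8% lay within 50 kb of such a peak, a share inside that interval. Capitals mark the seed, bases 2 to 8.
miR-100-5p: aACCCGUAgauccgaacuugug
miR-99a-5p: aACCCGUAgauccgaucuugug
let-7c-5p: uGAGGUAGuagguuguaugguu
miR-125b-5p: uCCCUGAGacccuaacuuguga
miR-29a-3p: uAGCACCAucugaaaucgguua
miR-29b-3p: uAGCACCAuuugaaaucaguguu
miR-135a-5p: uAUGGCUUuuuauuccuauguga
The seed ACCCGUA is shared by miR-100-5p and miR-99a-5p, whose genes lie on chromosomes 9 and 16. The seed AGCACCA is shared by miR-29a-3p and miR-29b-3p, microRNAs known to repress collagen messages. An 823 bp peak was centred 1.85 kb from the Mir100 hairpin and 3.36 kb from that of Mirlet7a-2. A 697 bp peak was centred 3.84 kb from Mir99a and 3.09 kb from Mirlet7c-1, 486 kb from the nearest protein-coding gene, Usp25. In each of these clusters, a gene with the ACCCGUA seed sits beside a let-7 gene. Peaks of 718 and 1150 bp lay 13.3 and 25.9 kb from Mir29a, and a 602 bp peak lay 2.05 kb from Mir135a-2.

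The first question was how densely RelA peaks covered gene deserts. The length that met the rule added up to 697 Mb, or 28.3% of the length from position 1 to the last gene of each chromosome. It held 2.08 peaks per Mb (exact Poisson 95% interval 1.97 to 2.19), the lowest density of the 6 location classes. The class at 10 to 100 kb from a protein-coding gene had 4.05 per Mb (3.88 to 4.23), the inside of protein-coding genes 4.14 per Mb (4.01 to 4.27), and protein-coding gene ends 16.4 per Mb (15.5 to 17.3). No gene-desert peak lay in the first 3 Mb of a chromosome. With length counted from the first gene of each chromosome, the desert density was 2.27 per Mb (2.15 to 2.39). Stretches of the build without known bases, where no peak can be called, were not removed from these lengths. Sequence to which short reads cannot be assigned was not removed either.

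Within deserts, density was lower in each band farther from protein-coding genes, although the intervals of some neighbouring bands overlapped. The median distance to a protein-coding gene end was 226 kb, with quartiles of 147 and 374 kb and a range of 100.1 to 2209 kb. From 100 to 150 kb there were 381 peaks at 3.43 per Mb (exact Poisson interval 3.09 to 3.79), and from 150 to 200 kb there were 256 at 3.13 per Mb (2.76 to 3.54). The density was 2.45 per Mb (2.17 to 2.75) from 200 to 300 kb and had an interval of 2.06 to 2.57 per Mb from 300 to 500 kb. It was 1.17 per Mb (1.00 to 1.36) from 500 to 1000 kb. Beyond 1000 kb, 43 peaks lay in 107 Mb, or 0.400 per Mb (0.290 to 0.539), and in 64.7 Mb, or 0.665 per Mb (0.481 to 0.895), with length counted from the first gene. At the threshold, the nearest members were peaks 100.1 kb from Cdc42ep3, 100.3 kb from both Setbp1 and Ext1, 100.6 kb from Spcs3 and 100.7 kb from Tmem174. The peaks just outside were at 99.9 kb from Nrep, 99.5 kb from Emp1, 99.3 kb from Hivep1, 99.2 kb from Snx2 and 99.1 kb from Ptch1.

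**Figure D1:**
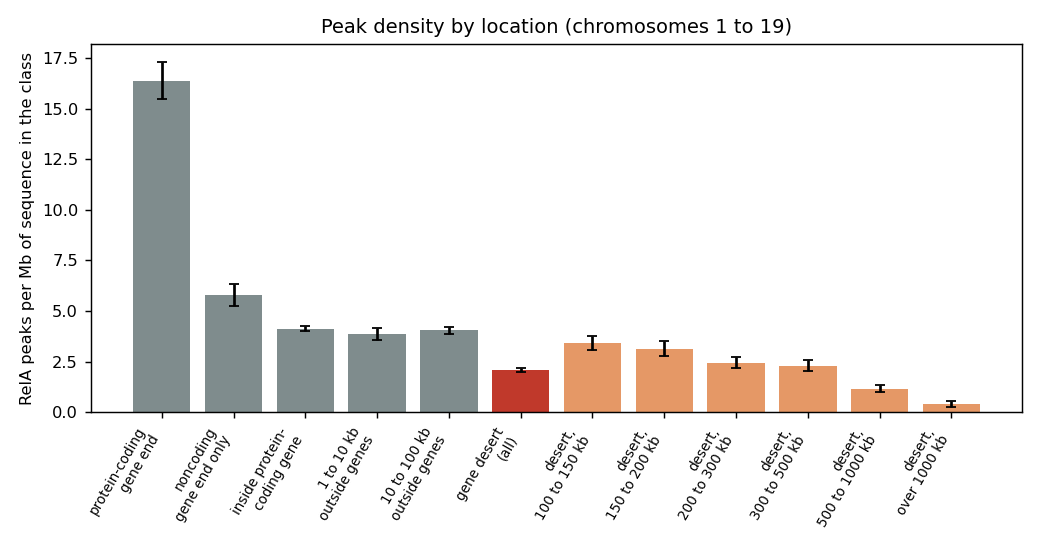
RelA peaks per Mb of sequence in each location class (grey, and red for all gene deserts) and in distance bands within deserts (orange), on a linear axis from 0. Bars are densities and lines are exact Poisson 95% intervals. The bands fall from 3.43 per Mb at 100 to 150 kb to 0.400 per Mb beyond 1000 kb.

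Where strand was known, densities were alike on the start side and the 3′ side of the nearest gene, within their intervals. Strand was known for the nearest gene of 1057 peaks. Of these, 572 (54.1%) were nearest to the start of the gene and 485 (45.9%) to its 3′ end. The desert length nearest to starts and to 3′ ends was divided in almost the same way, 54.3 and 45.7%, so that the densities were 1.99 per Mb (exact Poisson interval 1.83 to 2.16) and 2.00 per Mb (1.83 to 2.19). The 393 peaks whose nearest gene had no known strand stood at 2.35 per Mb (2.13 to 2.60), and their side could not be told.

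The next question was which deserts carried the peaks. The rule left 1396 separate deserts, of which 582 held at least 1 peak (41.7%, Wilson 95% interval 39.1 to 44.3%). A single peak lay in 258 deserts, 2 to 4 peaks in 253 and 5 or more in 71. The 10 deserts with the most peaks held 124 of the members (8.55%) on 2.60% of the desert length. The share of deserts with a peak was 15.3% below 100 kb of length, 40.4% from 100 to 300 kb, 61.8% from 300 to 1000 kb and 61.3% above 1000 kb. The last class counts 19 deserts at chromosome ends, 17 of them without a peak, and stretches without known bases were not removed from them. Between genes the share was 66.5% (123 of 185). The 204 longest deserts, over 1000 kb, had 447 peaks in 396 Mb (exact Poisson interval 1.03 to 1.24 per Mb), while those of 300 to 1000 kb had 673 peaks at 3.09 per Mb (2.86 to 3.33). Without those at chromosome ends, the deserts over 1000 kb had 444 peaks in 337 Mb, or 1.32 per Mb.

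**Figure D2:**
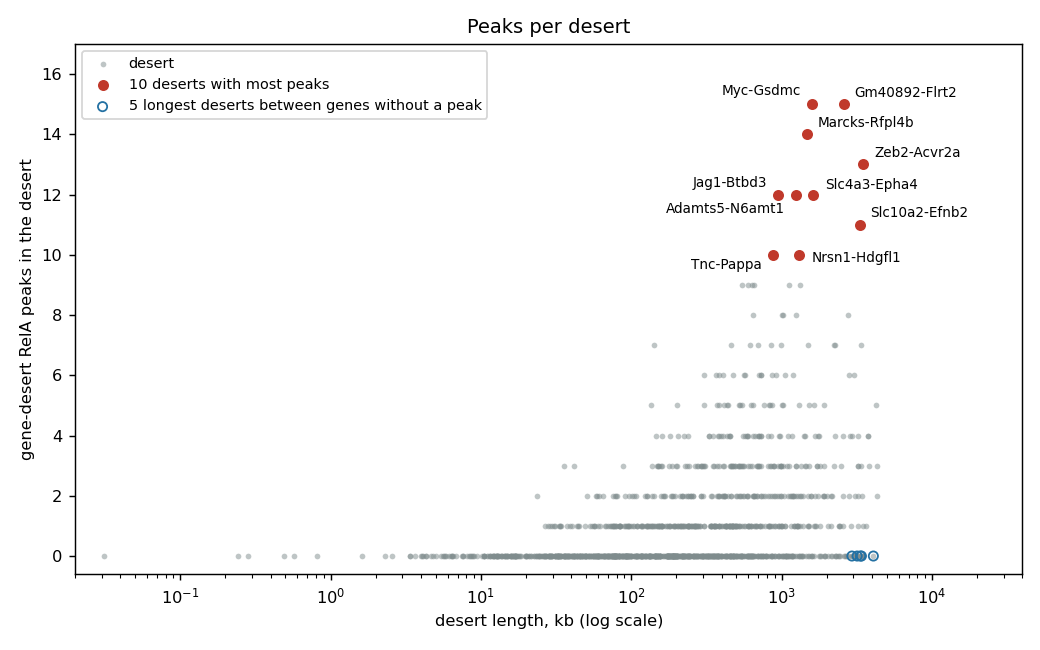
Each point is 1 of 1396 deserts, with its length in kb on a log axis and its number of gene-desert RelA peaks on a linear axis. The 10 deserts with most peaks (red, 10 to 15 peaks each) are named by their bordering genes, and the 5 longest deserts between genes without a peak are circled in blue.

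The desert between Myc, a transcription factor gene of cell growth, and Gsdmc held 15 peaks over 1786 kb between the genes, at 9.73 per Mb (exact Poisson interval 5.45 to 16.0). Of these, 9 were nearer to Myc, from 124 to 796 kb away, and the closest at 124 and 147 kb lay inside the lncRNA gene Pvt1. The desert beside Flrt2, an adhesion protein gene, also held 15, at 5.86 per Mb. They stood in separate stretches: 8 lay 128 to 375 kb from Flrt2, and the next was 1312 kb away. Beside Marcks, a substrate of protein kinase C, 14 peaks lay in the desert, 10 of them 195 to 464 kb from the gene. The desert between Zeb2, a transcriptional repressor gene of mesenchymal cells, and Acvr2a, an activin receptor gene, held 13 peaks with an empty stretch of 1507 kb between neighbours.

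The desert between Jag1, a Notch ligand gene, and Btbd3 was the most densely occupied of the 10, with 12 peaks at 13.0 per Mb (exact Poisson interval 6.73 to 22.7). They lay 259 to 924 kb from Jag1, at a median spacing of 61.1 kb, and 3 were inside the lncRNA gene Gm14064. Between Adamts5, which encodes an aggrecan-cleaving enzyme, and N6amt1 there were 12 peaks at 9.78 per Mb, 9 of them nearer to Adamts5 (194 to 665 kb). Between Tnc, the tenascin-C gene, and Pappa, a metalloproteinase gene of growth factor signalling, 10 peaks were spaced 44.2 to 131 kb apart at 11.6 per Mb (5.57 to 21.4). The remaining 3 deserts bordered the anion exchanger gene Slc4a3 and the ephrin receptor gene Epha4 (12 peaks), Slc10a2 and the ephrin gene Efnb2 (11), and Nrsn1 and Hdgfl1 (10). Peaks in these 10 deserts had median widths of 613 to 717 bp, which lay around the median of all members, 680 bp.

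**Figure D3:**
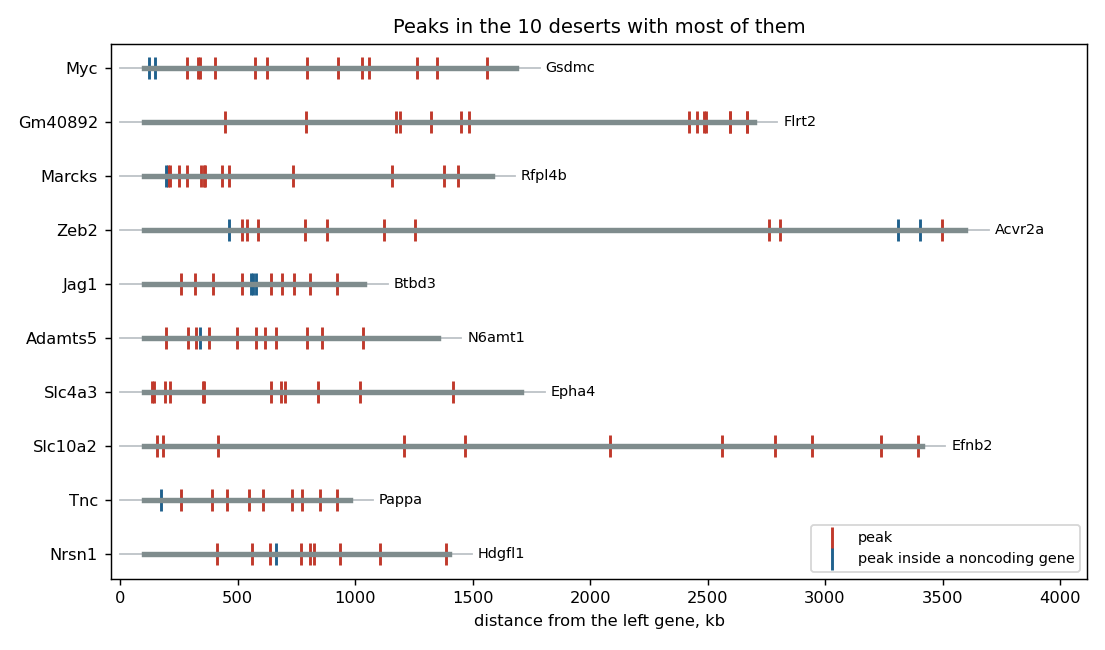
Each line is the gap between the protein-coding genes named at its ends, with distance from the left gene in kb, and the thick part is the stretch over 100 kb from both. Ticks are peak centres, red outside and blue inside noncoding genes. Peaks are spread along the Jag1 and Tnc gaps, and stand in separate stretches in the Zeb2 and Flrt2 gaps.

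Some of the longest deserts held no peak, and are named after their values were seen. The longest of these was the 4078 kb desert between Cntnap5b and the cadherin gene Cdh20. The next were those between Stim2 and the protocadherin gene Pcdh7 (3395 kb), Cdh6 and Cdh9 (3352 kb), Hace1 and the glutamate receptor gene Grik2 (3181 kb), and Got2 and Cdh8 (2936 kb). Of the 10 longest empty deserts between genes, 6 bordered a gene of the list of cadherins and neural adhesion or receptor genes, but such genes also bordered 22 of all 39 deserts over 2500 kb (56.4%). Of the deserts between genes over 1000 kb, 39 of 57 with such a border held a peak (68.4%, Wilson 95% interval 55.5 to 79.0%), against 84 of 128 without one (65.6%, 57.0 to 73.3%). Deserts with such a border were longer, with medians of 2173 and 1388 kb. They held 115 peaks at 0.885 per Mb, against 329 peaks at 1.59 per Mb in those without one.

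The genes nearest to the peaks were then described by lists of known function. Of 2361 protein-coding genes that bordered a desert, 30.9% were the nearest gene of at least 1 gene-desert peak and 7.12% of at least 3. Among developmental transcription factors, 94 of 133 bordered a desert, and 51 of these had a peak (54.3%, Wilson 95% interval 44.2 to 64.0%). They were the nearest genes of 137 peaks, at 4.27 per Mb of desert (exact Poisson interval 3.58 to 5.04), against 2.08 per Mb for all genes. Klf6, an early response zinc finger gene, had 12 peaks, 6 on each side of the gene, 129 to 559 kb away and at 16.1 per Mb (8.31 to 28.1). Myc had 10, Zeb2 had 8, the nearest at 464 kb, and Ebf1, a factor gene of B cells and fat cells, and Klf4 had 6 each, at 18.9 and 12.2 per Mb.

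Matrix and fibroblast genes bordered deserts in 26 of 54 cases. Of these, 9 had a peak (34.6%) and 6 had at least 3 (23.1%), against 30.9 and 7.12% of all bordering genes. They were nearest to 39 peaks at 4.54 per Mb (exact Poisson interval 3.23 to 6.20). The interval takes peaks as independent, although most of the 39 lay beside the few genes named here. Adamts5 had 9 peaks. Has2, which encodes the main hyaluronan synthase of fibroblasts, had 8 at 17.8 per Mb (7.68 to 35.0), 5 of them within 200 kb. Cdh11, a cadherin gene of mesenchymal cells, had 7, from 437 to 963 kb away. The fibronectin gene Fn1 had 4 peaks at 103, 154, 224 and 243 kb, all on 1 side of the gene, and Tnc had 4 from 173 to 454 kb.

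Secreted signals bordered deserts in 42 of 71 cases, and 15 had a peak (35.7%), with 35 peaks at 4.04 per Mb (exact Poisson interval 2.81 to 5.62). Cxcl12, a chemokine gene of stromal cells, had 4 peaks 146 to 286 kb away, and Fgf9 had 4 from 240 to 469 kb. The axon guidance gene Slit2 had 4 from 472 to 985 kb, while the bone morphogenetic protein genes Bmp4 and Bmp2 had 3 each, the closest at 106 and 109 kb. Cadherins and neural adhesion or receptor genes, by contrast, bordered deserts in 81 of 93 cases with 88.1 Mb of desert. Although 32 of the 81 had a peak (39.5%), the density was 0.897 per Mb (0.710 to 1.12). Flrt2 had 13 of these 79 peaks, the adhesion receptor gene Adgrl2 had 8, Pcdh18 had 6, Epha7 had 5 and Ctnna2 had 4. The cadherin genes Cdh11 (7 peaks) and Cdh5 (6 peaks) were placed in the matrix and endothelial lists, and do not count in this density. The lists were chosen with earlier results of these data known, so the contrast depends in part on how genes were assigned. At 100 to 300 kb from the gene, all genes had 2.98 per Mb (2.79 to 3.18), the developmental factors 5.05 per Mb (4.03 to 6.25) and the neural list 1.30 per Mb (0.874 to 1.87). Secreted signals had 4.72 per Mb (3.16 to 6.78) there, and matrix genes 3.60 per Mb (2.01 to 5.93), an interval that holds the value of all genes.

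**Figure D4:**
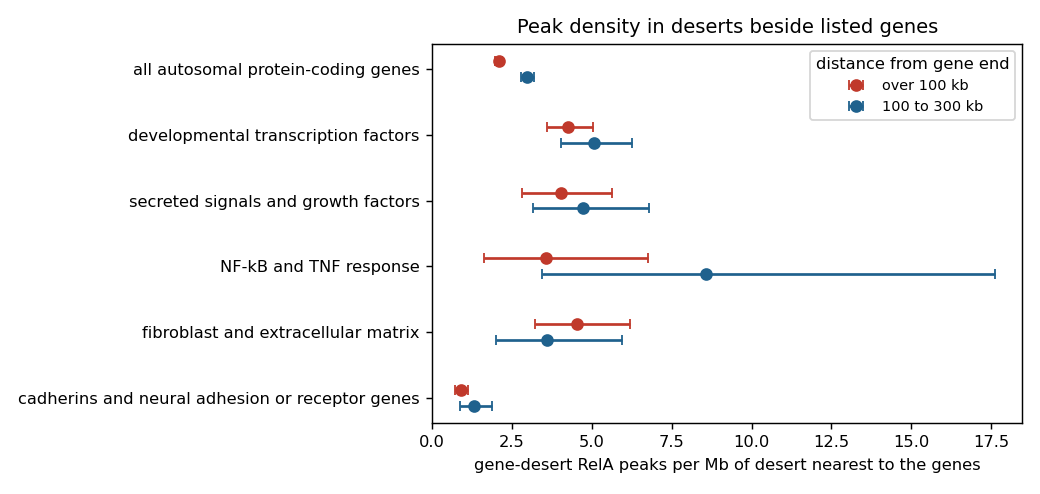
Gene-desert RelA peaks per Mb of desert for which a gene of the list is the nearest protein-coding gene, at all distances over 100 kb (red) and at 100 to 300 kb only (blue), for lists with at least 5 bordering genes. Points are densities and lines are exact Poisson 95% intervals. Developmental transcription factors stand at 4.27 and 5.05 per Mb, and the neural list at 0.897 and 1.30.

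Known NF-kB target and TNF response genes bordered a desert in 9 of 80 cases (11.2%), close to the 11.5% of all protein-coding genes, and 4 had a gene-desert peak. Tnfaip3, which encodes the NF-kB inhibitor A20, had 5 peaks on 68.6 kb of desert, or 72.9 per Mb (exact Poisson interval 23.7 to 170). These peaks lay 102, 111, 138, 147 and 152 kb from the gene, and were 899, 1245, 623, 731 and 714 bp wide. A further 2 peaks in the same gap were slightly nearer to Olig3, a neural transcription factor gene, so that 7 gene-desert peaks lay within the 341 kb between Tnfaip3 and Olig3. Of the 7, 5 were inside the 66.2 kb lncRNA gene Gm20139. The gap also held peaks at 0.033, 30.9 and 89.8 kb from Tnfaip3, and none on the Olig3 side beyond 177 kb from Tnfaip3. Nfkbiz, which encodes a nuclear I-kappa-B protein, had peaks at 175 and 205 kb, Ripk2 had 1 at 576 kb and Map3k7 had 1 at 1058 kb. The density of the whole list was 3.55 per Mb (1.62 to 6.74), and without Tnfaip3 it was 1.62 per Mb (0.442 to 4.15), from 4 peaks.

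Markers of other cell types bordered a desert in 1 (macrophage), 3 (endothelial) and 2 (epithelial) of 15 genes each, against 11.5% of all protein-coding genes. The endothelial cadherin gene Cdh5 had 6 peaks, 148 to 608 kb away, and was the only 1 of 3 bordering endothelial markers with a peak. The macrophage list had 1 bordering gene, the leukocyte surface gene Ptprc, with 2 peaks at 255 and 471 kb. No gene-desert peak was nearest to a housekeeping gene (0 of 16 bordered a desert) or to an epithelial and keratinocyte marker (2 of 15 bordered one). The epithelial list had only 0.0397 Mb of desert nearest to it, too little for an absence to be read.

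Noncoding genes held a larger part of the peaks than of the desert. Of the members, 232 (16.0%, Wilson 95% interval 14.2 to 18.0%) were centred inside a noncoding gene, 226 of them in an lncRNA gene, while such genes took up 10.8% of the desert length. The density was 3.09 per Mb (exact Poisson interval 2.71 to 3.52) inside and 1.96 per Mb (1.85 to 2.07) outside. These lengths run from position 1, so the outside part includes chromosome starts before the first gene, which lowers its density. With length from the first gene, all deserts together had 2.27 per Mb (2.15 to 2.39), and the outside part alone was not computed. The peaks fell in 178 noncoding genes, of which 134 held 1 peak, 35 held 2 and 9 held 3 or more. The lncRNA gene 2610307P16Rik on chromosome 13 held 8 peaks over 425 kb. Of these, 5 were nearest to Sox4, a transcription factor gene, 151 to 319 kb from it, and 3 to Prl5a1. Mir100hg on chromosome 9, the host gene of the miR-100, let-7a-2 and miR-125b-1 cluster, held 7, of which 1 was nearest to Gm40514 and 6 to Ubash3b. Gm20139 beside Tnfaip3 held 5. Gm35551, whose window is printed above, held 3 peaks of 455, 1088 and 734 bp at 139 to 158 kb from Zfp36l2. The other lncRNA genes with 3 peaks were Gm14064 between Jag1 and Btbd3, Gm26691 (202 to 248 kb from Cxxc4), Gm29536 (nearest to Kcne4 and Scg2), Gm30215 (103 to 138 kb from Aebp2) and 2600014E21Rik (227 to 243 kb from Gm50595).

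**Figure D5:**
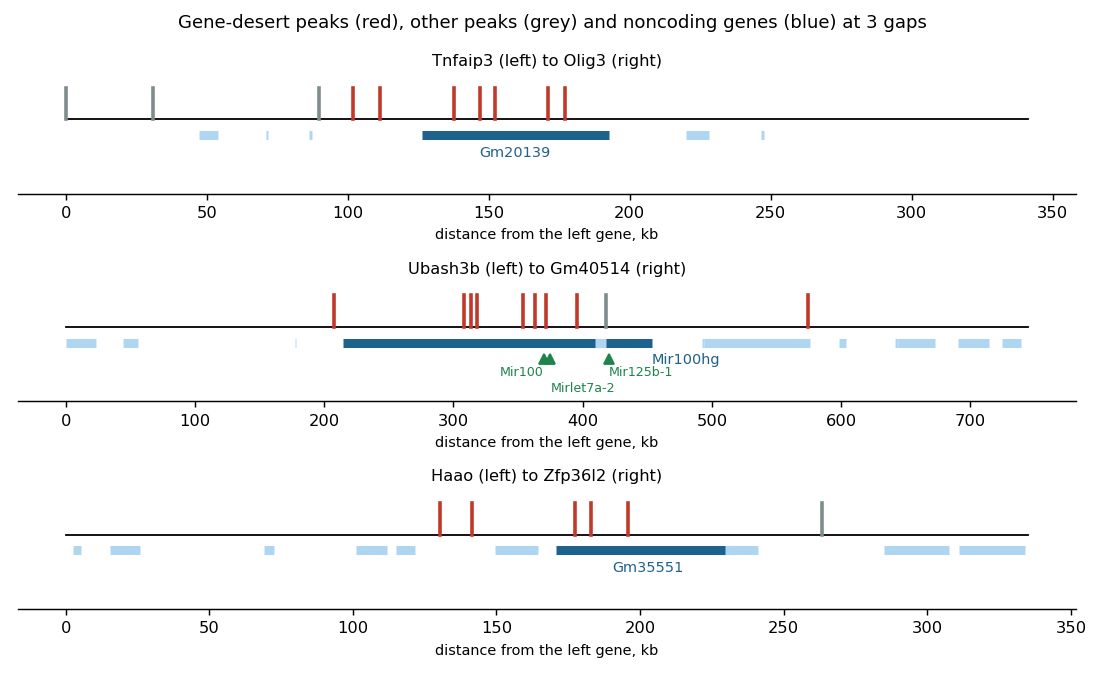
Gaps between the named protein-coding genes, with distance from the left gene in kb: vertical lines are peak centres, red for gene-desert peaks and grey for other peaks. Horizontal bars are noncoding genes, dark blue for those named, and green triangles are microRNA genes. Gm20139 holds 5 of the 7 gene-desert peaks of the Tnfaip3 gap, Mir100hg 7 of 9 and Gm35551 3 of 5.

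Neighbouring peaks were less frequent beside gene-desert peaks than over all peaks, but at a share close to that at protein-coding gene ends. Deserts also had fewer peaks per Mb than the rest of these chromosomes (2.08 against 4.67), and the share was not adjusted for density. Another peak centre lay within 10 kb of 165 members (11.4%, Wilson 95% interval 9.85 to 13.1%), against 15.8% of all peaks on chromosomes 1 to 19, 18.1% of those at 10 to 100 kb from a gene and 11.8% (10.1 to 13.8%) of those at protein-coding gene ends. Gene-desert peaks alone formed 7 runs of 3 with neighbouring centres within 10 kb, 64 pairs, and 1301 peaks that stood alone. The tightest run spanned 6.29 kb on chromosome 18, 297 to 302 kb from Zfp521, a zinc finger gene of mesenchymal precursors. Others spanned 7.09 kb beside Dmrta1, 15.5 kb in Gm20139 beside Tnfaip3, 16.1 kb beside Marcks and 18.8 kb in Gm14064 between Jag1 and Btbd3. The remaining 2, of 10.9 and 18.7 kb, were both in Mir100hg.

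Width was the only measure of a peak besides its position. Members had a median width of 680 bp (quartiles 588 and 801 bp, range 375 to 1685 bp), and the binomial 95% interval of that median was 671 to 688 bp. All other peaks of these chromosomes had a median of 689 bp (684 to 694 bp), and peaks at protein-coding gene ends one of 766 bp (747 to 780 bp). The median was 673 bp (667 to 679 bp) inside protein-coding genes, 667 bp at 1 to 10 kb from them and 695 bp at 10 to 100 kb. Widths of 1000 bp or more were reached by 101 members (6.97%, Wilson 95% interval 5.77 to 8.39%), against 8.74% of all peaks. The peak of 1685 bp spanned chromosome 1 positions 120756926 to 120758610, inside the lncRNA gene 2610027F03Rik and 150 kb from En1, a homeobox gene. Those of 1558, 1504 and 1463 bp were nearest to Ddhd1 (168 kb), Tmem38b (233 kb) and Hdgfl1 (688 kb). The others of the 10 widest were nearest to Epha7 (1376 bp), Trps1 (1371 bp), Fam170a (1366 bp), Jcad (1362 bp), Tns1 (1357 bp) and Usp46 (1337 bp).

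Of the 10 members most remote from protein-coding genes, 8 were narrower than the median member. The farthest lay on chromosome 18 from 27963095 to 27963610, 2209 kb from Celf4, and was 516 bp wide. Next came a 427 bp peak at 2112 kb from the protocadherin gene Pcdh17 and a 594 bp peak at 2069 kb from Pik3c3. The other 7 of the 10 farthest were nearest to Pcdh10 (1677 and 1432 kb), Ralyl (1510 kb), Pcdh17 (1510 kb), Slc10a2 (1470 kb), Cdh8 (1468 kb) and Efnb2 (1426 kb). Beyond 1000 kb the median width was 608 bp, against 689 bp from 100 to 150 kb.

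Chromosomes differed in how many of their peaks lay in deserts. Chromosome 13 had the highest share and density, with 131 of 514 peaks (25.5%, Wilson 95% interval 21.9 to 29.4%) at 3.64 per Mb (exact Poisson interval 3.05 to 4.32). Chromosome 2 followed in density with 125 peaks at 3.00 per Mb (2.50 to 3.58). The lowest densities were on chromosomes 19 (17 peaks, 1.28 per Mb, 0.743 to 2.04), 5 (54 peaks, 1.37 per Mb) and 7 (41 peaks, 1.54 per Mb). With length counted from the first gene, these were 1.66, 1.48 and 1.74 per Mb, so that chromosome 5 was lowest. Klf6, 2610307P16Rik and the desert beside Hdgfl1 all lie on chromosome 13.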

How the data were processed

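RelA ChIP-seq libraries of wild-type fibroblasts were sequenced by the authors. The tools named, per the submitters' processing notes, were MACS2, Bowtie2 2.3, cutadapt 1.9.1, deepTools, Picard 1.13 and SAMtools, with the mm10 build. Peak threshold, use of input and pooling were not given in sources used here. Deposited values are other than measurements per sample: each peak's chromosome, start and end in base pairs.

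Starts were converted to positions counted from 1. Genes came from the RefSeq table of GRCm38.p6, with 49209 genes on chromosomes 1 to 19 and X, and 345 genes of patch or unplaced scaffolds were left out. Distances ran from the peak centre to either gene end. Strand came from the RefSeq promoter table where it lists the gene. Peaks per Mb divide peaks by the length that met the same rule, with exact Poisson 95% intervals, which take peaks as independent. Shares have Wilson 95% intervals. No test was made, for lack of values per sample. A sequence search of whole peaks was not run, since no genome sequence was used here. The members and the 9 gene lists were chosen with earlier results of these data known. Named were the 10 widest and 10 farthest peaks, the 10 deserts with most peaks, runs of 3 or more, 5 peaks on each side of the threshold, the 5 genes with most peaks in each list, and noncoding genes with 3 or more peaks. Other genes were named after their values were seen. The location rule was tested on simulated data. Python 3.11.15, pandas 2.3.3 and SciPy 1.17.1 were used.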

Additional observations from a re-analysis of the deposited data

Results flagged for a closer look

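Chromosome X was outside the rule and outside all comparisons above. Of its 135 peaks, 25 met the same conditions of distance (18.5%, Wilson 95% interval 12.9 to 25.9%). They lay in 57.4 Mb of desert, at 0.436 per Mb (exact Poisson 95% interval 0.282 to 0.643), against 2.08 per Mb on chromosomes 1 to 19. The rest of X had 0.971 peaks per Mb, against 4.67 per Mb for the rest of chromosomes 1 to 19, so X was lower both in and outside deserts. They were looked at because they are signal in data that the comparisons did not use. Among them were 4 nearest to H2al1j, 212 to 338 kb away, and 4 nearest to Tex13c3, 196 to 384 kb away.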

How the results depend on the processing

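No paired analysis was possible because the list has no values per sample, and leaving out a library was not possible for the same reason. The share of peaks with a kappaB match over whole peaks was not run. A minimum distance of 150 kb gave 1069 peaks, a share of 11.0% and 1.82 peaks per Mb, and 200 kb gave 813 peaks, 8.39%, 1.61 per Mb and a median width of 670 bp. Keeping peaks of at least the median width left 695. Between 1432 and 1517 peaks remained when both peak edges had to meet the rule, predicted genes were left out, noncoding ends were ignored or peaks within 1 kb were merged. Length from the first gene gave 2.27 per Mb. The share of deserts with a peak was 44.6 and 44.8% at 150 and 200 kb. With windows of 5, 25 and 50 kb, 4.14, 25.2 and 42.7% of members had a neighbouring peak, against 6.70, 36.9 and 55.4% of other peaks. Counting either flanking gene in place of the nearest raised the share of members beside developmental factors from 9.45 to 15.4%, secreted signals from 2.41 to 4.48%, NF-kB genes from 0.621 to 1.24%, matrix genes from 2.69 to 5.10% and the neural list from 5.45 to 10.3%, since each peak then counts for 2 genes. At 100 to 300 kb only, chosen after seeing the data, the densities were 2.98 per Mb for all genes, 5.05 for developmental factors, 8.56 for NF-kB genes, 3.60 for matrix genes and 1.30 for the neural list. The NF-kB value came from 7 peaks (exact Poisson interval 3.44 to 17.6 per Mb), 5 nearest to Tnfaip3 and 2 to Nfkbiz. The cause of these changes was not tested. Depth was unknown, so a desert without a listed peak is not shown to lack binding.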

Other observations

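Some lncRNA genes with 2 gene-desert peaks lay beside genes of development and cell death, and are named here after their values were seen. Morrbid, an lncRNA known to restrain the pro-apoptotic gene Bcl2l11 in myeloid cells, held peaks of 674 and 784 bp at 188 and 202 kb from Bcl2l11. Peaks at 227 and 255 kb from Pax3, a transcription factor gene of neural crest and muscle, lay where Gm33030 and Gm33083 overlap. The lncRNA gene 1700112M02Rik held peaks 367 and 375 kb from the homeobox gene Irx1, and 1600002D24Rik held peaks 115 and 124 kb from Ets2. The T cell receptor locus Tcra, which is not an lncRNA gene, held 2 peaks, 116 and 602 kb from Dad1. It spans 1796 kb and was counted with the noncoding genes because the gene table does not class it as protein-coding.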
